A study of Mus musculus with 24 samples.

Results

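The core genes of branchiomeric muscle described here are 7 transcription factor genes of head muscle progenitors: Msc, Tcf21, Pitx1, Myf5, Myf6, Myod1 and Myog. They were chosen by name from the table of gene counts for all libraries, and all 7 were found among its 26611 gene identifiers. The libraries came from pharyngeal arches 1 and 2 of female C57BL/6 mouse embryos at day E10.5, and 6 genotypes had 4 biological replicates each. These were wild type, Kat6a heterozygous knockout, Dlx5 heterozygous knockout, the double heterozygote of both genes, Dlx5 homozygous knockout and Kat6a homozygous knockout. The product of Kat6a (Moz) acetylates histones, and that of Dlx5 is a homeodomain factor that patterns the lower part of each arch. Embryos came from 2 mouse facilities, which the labels call batches. Batch 2 held the 4 wild type libraries, the 4 Kat6a homozygous libraries, replicates 1 to 3 of both single heterozygotes and replicate 1 of the double heterozygote. Batch 1 held the others, among them the 4 Dlx5 homozygous libraries. Nothing in the labels says whether a library was 1 embryo or a pool, so p-values measure the spread between these libraries.

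Branchiomeric muscles move the jaw, face and throat. They arise from mesoderm in the core of each arch, which is surrounded by neural crest mesenchyme. Msc (musculin) and Tcf21 (capsulin) encode related basic helix-loop-helix (bHLH) repressors that are needed for the muscles of the first arch, and Pitx1 encodes a homeodomain factor of first arch mesenchyme and head mesoderm. Myf5 and Myod1 encode the bHLH factors that commit cells to the muscle fate, and Myog and Myf6 (also called Mrf4) encode the factors of the same family that drive differentiation into fibres. In the head the myogenic factors are switched on without Pax3, which acts upstream of Myod1 in the trunk.

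The genes lay on 4 chromosomes of the mouse genome (GRCm38, the same assembly as mm10), by the RefSeq annotation. Msc, Entrez gene 17681, was at chr1:14753344-14756089 and Myog, gene 17928, at chr1:134290004-134292548. Myod1, gene 17927, was at chr7:46376474-46379092 and Pitx1, gene 18740, at chr13:55825044-55836190. Tcf21, gene 21412, was at chr10:22817263-22820143. Myf5, gene 17877, at chr10:107482908-107486927, and Myf6, gene 17878, at chr10:107492848-107494723, were neighbours with 5920 bases between them. All 7 were annotated as protein coding.

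Apart from Pitx1 all members belong to the bHLH class. A stretch of coding sequence that starts in the DNA-binding basic region and runs on past it shows how close the 4 myogenic factors are. The stretches below are 60 bases each, 20 codons from the same conserved arginine codon, on the coding strand, all within exon 1 of the GENCODE transcript. Capitals mark the 31 bases that all 4 share.
Myf5, chr10:107485602-107485661, minus strand: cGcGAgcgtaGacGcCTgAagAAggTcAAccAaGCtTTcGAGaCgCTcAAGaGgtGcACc
Myod1, chr7:46377021-46377080, plus strand: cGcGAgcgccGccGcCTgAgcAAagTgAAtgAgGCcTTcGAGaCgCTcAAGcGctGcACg
Myog, chr1:134290320-134290379, plus strand: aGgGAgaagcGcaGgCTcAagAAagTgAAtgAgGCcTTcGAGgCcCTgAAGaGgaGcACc
Myf6, chr10:107494345-107494404, minus strand: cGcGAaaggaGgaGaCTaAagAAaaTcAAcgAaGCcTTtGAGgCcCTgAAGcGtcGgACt
Within these 60 bases Myf5 and Myod1 were identical at 46, Myod1 and Myog at 43, and Myf6 and Myog at 42. Over the whole transcripts, the longest run of bases shared exactly by any 2 of the 7 members was 26, between Myf5 and Myod1. A read longer than this run that matched one of these transcripts exactly could not also match the other. Which read length was used is not stated.

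The 24 libraries held from 10406452 to 28198111 counted reads, and the deepest was wild type replicate 1. A count of 0 allowed a level of up to 0.106 to 0.288 CPM (counts scaled to library size) depending on the library, a limit for counting error only. Counts of the deleted genes did not mark the knockouts: Kat6a stood at 201.5 ± 40.7 CPM (SD, n = 4) in wild type and 227.6 ± 14.6 in the libraries labelled Kat6a homozygous. Dlx5 stood at 69.4 ± 6.78 CPM in wild type and 62.6 ± 5.11 in the libraries labelled Dlx5 homozygous. The labels do not say which exons were removed, so a count over the whole gene does not check them, and genotypes below are as labelled. Summed markers of neurons (10 genes, none at 0 in all libraries) ranged from 41.2 to 471 CPM between libraries. They exceeded 3 times the median (189.3 CPM) in wild type, Kat6a heterozygous, Dlx5 heterozygous and Kat6a homozygous replicate 2 and in double heterozygous replicates 3 and 4. Because each library mixes all cells of the arches, fewer muscle progenitors and less RNA per progenitor cannot be told apart. Pitx1 is also a factor of first arch mesenchyme, so its counts need not come from muscle progenitors, and the libraries cannot separate these sources.

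Per kilobase of counted exon, the members spanned a wide range. Mean levels over 24 libraries, in RPKM (CPM per kilobase), were 36.5 for Pitx1, 3.57 for Tcf21 and 1.8 for Msc. The commitment factors were lower, with 1.02 RPKM for Myf5 and 0.496 for Myod1. Myog stood at 0.476 and Myf6 at 0.0258. Pitx1 was above 82.8% of the 14506 genes tested, whereas Myod1 and Myog were above 7.12% and 6.76%. Myf6 had 9 counts in all, at most 2 in a library, and was at 0 in 17 of 24 libraries. It did not pass the filter on low counts, so 6 of 7 members were tested. Myf6 counts were 0, 1, 2 and 0 in wild type replicates 1 to 4 and 0 in all 4 Dlx5 heterozygous libraries. No other genotype had more than 2 Myf6 counts in any library, and these values lie under the limit that a count of 0 allows, so no difference in Myf6 was detectable at this depth.

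Msc, the musculin gene, was the only member called in any comparison with wild type (edgeR), and it was lower in Kat6a homozygotes. Its normalised counts in the wild type libraries were 2.26, 4.09, 2.77 and 3.87 CPM. In the libraries labelled Kat6a homozygous they were 1.59, 2.12, 1.29 and 1.67 CPM, all below the lowest wild type library. Of all genes tested, 6.40% separated these groups in either direction (levels here and in later counts of separation are after removal of the fitted batch difference). Msc fell by 0.93 on the log2 scale (SE 0.24), a 1.90-fold difference, with an adjusted p of 0.0478 (edgeR quasi-likelihood test, Benjamini-Hochberg over all genes). This was 1 member called of 6 tested, where 1.53% of all genes (222) were called in that comparison. That background was 122 genes without Kat6a homozygous replicate 1, 444 without wild type replicate 1 and 64 (0.46%) with only the 2 groups compared.

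The Msc call lies at the edge of the threshold. It was retained in 19 and lost in 18 of 37 alternative analyses, with log2 differences from -1.11 to -0.80 and adjusted p between 0.0133 and 0.182. DESeq2 gave an adjusted p of 0.0343 and limma voom one of 0.147. Within batch 2 alone the difference was -0.94 (adjusted p = 0.135). Leaving out wild type replicate 2 gave -0.80 (adjusted p = 0.176) and replicate 4 -0.83 (0.128). Without Kat6a homozygous replicate 1 the value was -0.91 (0.130), without replicate 3 -0.83 (0.129) and without replicate 4 -0.94 (0.10). Leaving out a library of another genotype ended the call for Kat6a heterozygous replicate 1, Dlx5 heterozygous replicates 1 and 4, double heterozygous replicates 2 to 4 and Dlx5 homozygous replicates 1 and 2, with log2 differences of -0.94 to -0.93 and adjusted p from 0.0510 to 0.0581. Without the neuron-rich libraries it was -0.92 (adjusted p = 0.182).

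In the other genotypes Msc was not called. Libraries were at 2.71, 3.80, 2.26 and 3.82 CPM in Kat6a heterozygotes, a log2 difference from wild type of -0.004 (SE 0.23, adjusted p = 0.997). The Dlx5 heterozygous libraries held 3.72, 5.61, 3.31 and 4.12 CPM, the highest group mean (4.19 ± 1.00 CPM, SD, n = 4), 0.41 above wild type on the log2 scale (SE 0.22, adjusted p = 0.506). Double heterozygotes had 4.47, 3.04, 3.39 and 3.56 CPM and Dlx5 homozygous libraries 2.76, 3.01, 2.81 and 2.02 CPM. Kat6a homozygous libraries, at 1.67 ± 0.34 CPM, lay below every library of the other groups, except that replicate 2 stood above Dlx5 homozygous replicate 4. Set directly against Kat6a heterozygotes, the difference was -0.92 (SE 0.25) with no overlap of the groups (7.02% of all genes did not overlap), but its adjusted p was 0.0956.

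One test over all 6 genotypes called Msc (adjusted p = 0.0319). That was 1 of 6 members, beside 1.39% of all genes. Pitx1 (0.154), Myf5 (0.161), Myog (0.168), Myod1 (0.453) and Tcf21 (0.783) did not pass it with edgeR. An unadjusted p under 0.05 was seen for 4 of the 6 members and for 2192 of all 14506 genes tested. DESeq2 called Pitx1 as well (adjusted p = 0.0196), in a test where it called 621 genes, or 4.28% of all, and limma voom called Msc (0.0322). No member was called when the neuron-rich libraries were left out (Msc adjusted p = 0.134). The Msc call in this test was also lost without Dlx5 heterozygous replicate 2 or 4, double heterozygous replicate 1 or Kat6a homozygous replicate 1, 3 or 4, where 0 members were called.

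**Figure D1:**
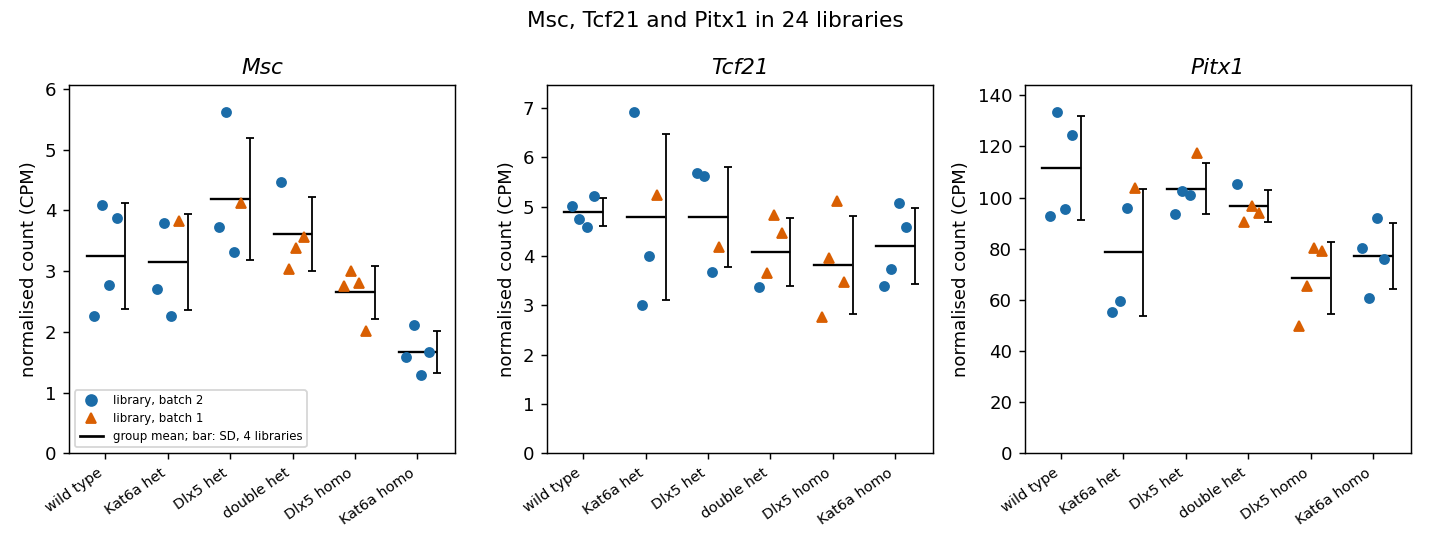
Normalised counts of Msc, Tcf21 and Pitx1 (vertical axes, CPM) in each library of the 6 genotypes (horizontal axes). Circles are batch 2 and triangles batch 1 libraries, black lines are group means and bars the SD of 4 libraries. The 4 Kat6a homozygous libraries lie between 1.29 and 2.12 CPM for Msc, below all 4 wild type libraries.

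Tcf21, the relative of Msc, did not pass the test in any comparison. Wild type libraries held 5.02, 4.75, 4.58 and 5.22 CPM and Kat6a homozygous ones 3.4, 3.73, 5.08 and 4.58. The groups overlapped, and the log2 difference was -0.23 (SE 0.21, adjusted p = 0.697). Group means ran from 4.89 ± 0.28 CPM in wild type to 3.82 ± 0.99 in Dlx5 homozygotes, each neighbour in the order overlapping the next. Against wild type the Tcf21 log2 difference was -0.43 (SE 0.30, adjusted p = 0.637) in Dlx5 homozygotes and -0.32 (SE 0.27, adjusted p = 0.647) in double heterozygotes. After removal of the fitted batch difference all 4 double heterozygous libraries were below all wild type libraries for Tcf21, as 13.4% of all genes were separated in either direction. Across the 24 libraries the correlation of Msc with Tcf21 was 0.128 (permutation p = 0.550, adjusted over 21 pairs of members 0.722), with a Spearman's rho of 0.174.

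Pitx1 was the member with by far the most reads. Wild type libraries held 93.0, 133.4, 95.4 and 124.6 CPM and Kat6a homozygous libraries 80.3, 60.7, 91.9 and 76.0 CPM. Every Kat6a homozygous library was below every wild type library, though by little, and 6.40% of all genes separated these groups. The log2 difference was -0.53 (SE 0.19) and did not pass the test (adjusted p = 0.199). Kat6a heterozygotes split: replicates 1 and 2 held 55.2 and 59.6 CPM and replicates 3 and 4 held 96.0 and 103.8 CPM, a log2 difference from wild type of -0.57 (SE 0.19, adjusted p = 0.286).

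The lowest Pitx1 group was Dlx5 homozygous, with 49.8, 65.4, 80.1 and 79.0 CPM. All 4 of these libraries were below all 4 wild type libraries, and 11.8% of all genes separated these groups. The log2 difference was -0.91 (SE 0.25, adjusted p = 0.256). Pitx1 ranked 113 of all genes by p in this comparison, in which edgeR called 8 genes, or 0.0551%, and 0 of 6 members. DESeq2 (Pitx1 adjusted p = 0.0874) and limma voom (0.141) called no member either, and DESeq2 gave no adjusted p for the other 5 members. These groups share no batch, so that value rests on the batch term. Within batch 1 alone, Dlx5 homozygotes were also below double heterozygotes (-0.45, SE 0.16, adjusted p = 0.434). Dlx5 heterozygotes (93.4, 102.5, 100.9 and 117.3 CPM) and double heterozygotes (105.3, 90.5, 96.8 and 94.0 CPM) overlapped wild type.

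The Pitx1 transcript has a GC content of 65.8%, higher than 99.7% of the genes tested. Its level followed a GC index of the libraries, here the mean log2 level of GC-rich genes (at least 58.0% GC) minus that of GC-poor genes (at most 41.4%), each relative to the mean of the gene over libraries. Over 24 libraries r was 0.816 (permutation p = 2e-05, adjusted over 18 relations 0.00036) and rho 0.751. It was 0.697 within batch 1 (n = 9), 0.874 within batch 2 (n = 15) and 0.760 without the 2 libraries of most extreme index. The index was highest in wild type replicates 2 and 4 (0.24 and 0.25), the libraries with the most Pitx1, and lowest in Dlx5 homozygous replicate 1 (-0.21), the one with the least. With library GC trends removed, an alternative chosen after seeing the data, the Pitx1 difference from wild type was -0.41 (SE 0.12, adjusted p = 0.0925) in Kat6a homozygotes, -0.67 (SE 0.16, adjusted p = 0.184) in Dlx5 homozygotes and -0.33 (SE 0.12, adjusted p = 0.399) in Kat6a heterozygotes. Without the neuron-rich libraries the Kat6a homozygous value was -0.34 (adjusted p = 0.769). That fit left out wild type replicate 2, the highest of its group for Pitx1, and Kat6a homozygous replicate 2, the lowest of its group. The part of GC content and of neurons in the Pitx1 values was not tested beyond these fits.

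**Figure D2:**
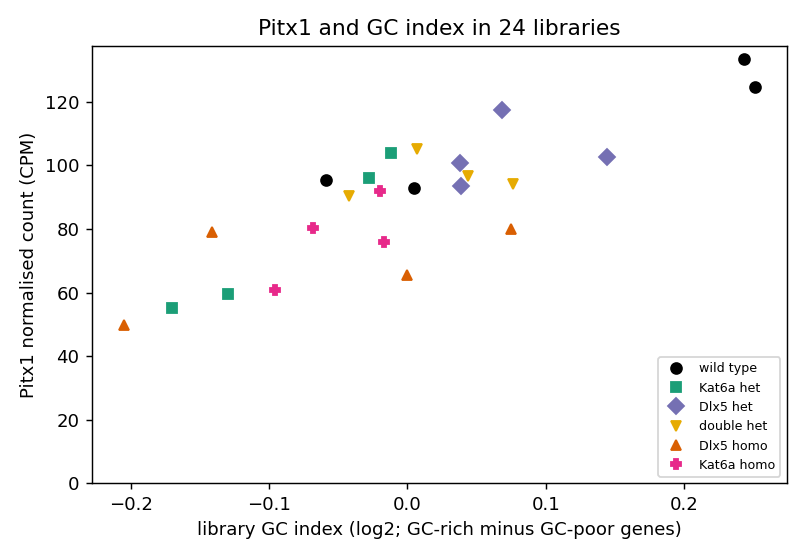
Pitx1 normalised count (vertical axis, CPM) against the GC index of each library (horizontal axis, log2), with 1 point per library and a colour and shape per genotype. Libraries with a high index had more Pitx1 (r = 0.816, 24 libraries).

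Msc also has a GC-rich transcript (58.2%, above 90.9% of genes), and its rank followed the index (rho 0.645, adjusted p = 0.00693) although r did not pass (0.490, permutation p = 0.0148, adjusted 0.134). With GC trends removed the Msc difference between Kat6a homozygous and wild type libraries was -0.87 (SE 0.24, adjusted p = 0.0630), and with the replicate number as a block in addition -0.87 (adjusted p = 0.0340).

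Among the myogenic factors no member passed the test in any comparison. Myf5, which commits cells to the muscle fate, was lowest in Kat6a homozygotes, with 1.43, 1.44, 1.21 and 1.59 CPM against 2.30, 1.55, 2.25 and 2.02 CPM in wild type. The groups overlapped by 1 library, wild type replicate 2, and the log2 difference was -0.53 (SE 0.24, adjusted p = 0.313). The highest Myf5 group was double heterozygous (4.29, 2.43, 1.78 and 2.82 CPM), where the difference from wild type was 0.67 (SE 0.26, adjusted p = 0.249). Dlx5 heterozygotes (2.42, 2.32, 2.39 and 1.91 CPM), Kat6a heterozygotes (2.01, 1.5, 2.00 and 2.40 CPM) and Dlx5 homozygotes (1.76, 1.98, 2.39 and 2.98 CPM) lay between them in mean. The CPM values of Dlx5 heterozygotes overlapped wild type, whereas after removal of the fitted batch difference all 4 were above it (5.20% of all genes were separated in either direction). The spread of Myf5 between replicates of a group was near the floor set by counting, at 1.20 times the Poisson variance. For Pitx1 that ratio was 37.5, above 99.0% of the 1000 genes nearest to it in level. This ratio grows with the level of a gene, and the fitted biological coefficient of variation was 0.183 for Pitx1, 0.179 for Msc, 0.18 for Tcf21, 0.148 for Myf5, 0.209 for Myod1 and 0.338 for Myog.

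Myod1, the other commitment factor, was also lowest in Kat6a homozygotes (0.679, 0.254, 1.03 and 0.353 CPM). Wild type libraries held 1.15, 0.982, 0.778 and 0.925 CPM, so 3 of 4 Kat6a homozygous libraries were below all of them and replicate 3 was not. The log2 difference was -0.74 (SE 0.37, adjusted p = 0.382). Against Kat6a heterozygotes (0.787, 1.03, 2.08 and 0.799 CPM) it was -1.04 (SE 0.38, adjusted p = 0.287). Counts of Myod1 behind these values were 3 to 12 per Kat6a homozygous library.

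Myog, the differentiation factor, had its highest group means in the heterozygotes. Wild type libraries held 0.143, 0.573, 0.692 and 0.252 CPM, from 3 to 8 reads each. Double heterozygotes held 1.73, 0.869, 0.762 and 0.745 CPM, from 9 to 19 reads each, all above the highest wild type library, and 13.4% of all genes separated these groups. The log2 difference was 2.16 (SE 0.58), with an adjusted p of 0.0887, so Myog was not called. The count of members called was 0 of 6 with edgeR, beside 0.448% of all genes, and 0 with limma voom (Myog adjusted p = 0.0781). DESeq2 called 0 of 5 and gave Myog no adjusted p. With edgeR 2 members (Myog and Myf5) had an unadjusted p under 0.05, as did 1880 of all 14506 genes tested. The value leans on the batch term, since 3 of the 4 double heterozygous libraries and no wild type library were from batch 1. Myog in batch 1 was fitted at -1.05 relative to batch 2 (SE 0.43, adjusted p = 0.661), and without a batch term the difference was 1.45 (adjusted p = 0.307). Neuron markers summed to 126.5 to 275.9 CPM (median 220.2) in the double heterozygotes and to 51.5 to 427 CPM (median 51.9) in wild type. With neuron-rich libraries left out the Myog difference was 2.44 (adjusted p = 0.114).

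In Kat6a heterozygotes Myog was at 0.350, 1.19, 1.91 and 0.622 CPM, a log2 difference from wild type of 1.65 (SE 0.51, adjusted p = 0.226). Dlx5 heterozygotes held 0.651, 1.16, 0.920 and 0.418 CPM (1.28, SE 0.53, adjusted p = 0.358). Both groups overlapped wild type, and the 3 differences share the same 4 wild type libraries, the lowest of which is also the deepest. The Kat6a homozygous libraries were split, with 0.679 and 1.29 CPM in replicates 1 and 3 and 0.254 and 0.264 in replicates 2 and 4. Those 2 pairs differed in Myod1 in the same way. Dlx5 homozygotes held 0.335, 0.601, 0.248 and 0.242 CPM, all below the double heterozygotes, and 8.71% of all genes separated these groups. The difference was -1.16 (SE 0.55, adjusted p = 0.686) and within batch 1 alone -1.14 (SE 0.44, adjusted p = 0.371).

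**Figure D3:**
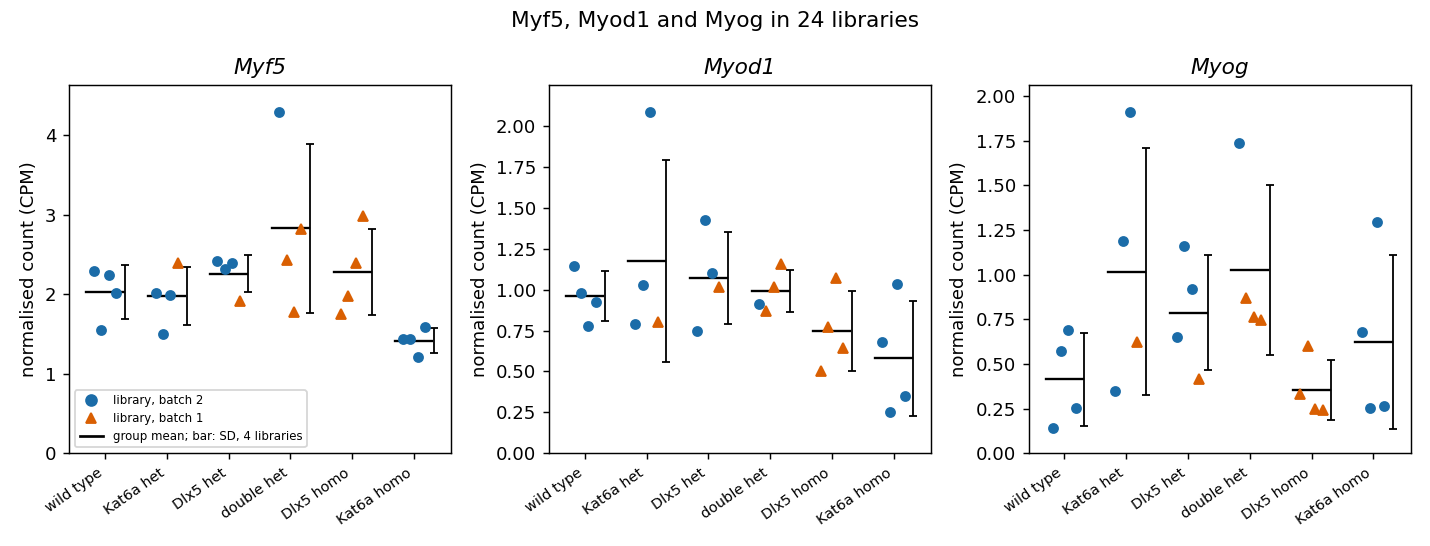
Normalised counts of Myf5, Myod1 and Myog (vertical axes, CPM) in each library of the 6 genotypes (horizontal axes). Circles are batch 2 and triangles batch 1 libraries, black lines are group means and bars the SD of 4 libraries. All 4 double heterozygous libraries, at 0.745 to 1.73 CPM of Myog, lie above the 4 wild type libraries, and the Myod1 and Myf5 groups largely overlap.

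In the remaining comparisons 0 members were called by edgeR and limma voom and 0 by DESeq2, which gave 5 of 6 members no adjusted p in each single heterozygote. For Kat6a heterozygotes against wild type 0% of all genes were called by edgeR, with 72 genes (0.496%) by DESeq2 and 0 to 196 by edgeR with 1 library left out (196 without wild type replicate 1). In this comparison 2 members (Myog and Pitx1) had an unadjusted p under 0.05, as did 1648 of all 14506 genes tested. In Dlx5 heterozygotes the background was 0% as well, and 1 member (Myog) had an unadjusted p under 0.05, beside 1645 of all genes. Dlx5 homozygotes against wild type had 1 such member (Pitx1), beside 1446 of all genes. Between Kat6a homozygotes and heterozygotes 0.641% of genes and 0 of 6 members were called. There 3 members (Msc, Myod1 and Myf5) and 1439 of all genes were under an unadjusted p of 0.05. Dlx5 homozygotes against double heterozygotes had 0% of genes called, and 2 members (Pitx1 and Myog) and 1042 of all genes were under an unadjusted p of 0.05. Msc, Pitx1 and Myog separated the groups completely, as did 8.71% of all genes. All 6 members had values below 0 in Dlx5 homozygotes in that comparison, none of them called (median log2 difference -0.40, against -0.00 over all genes), and Tcf21 was at 0.15 with the neuron-rich libraries left out. Markers of some other cells were lower there too, 9 of 9 tested for neurons (median -3.05, 6 with an unadjusted p under 0.05). So were 8 of 8 for endothelium (-0.16, 4 under 0.05) and 4 of 4 for epicardium and mesothelium (-0.84, 2 under 0.05). The same held for 3 of 3 for smooth muscle (-0.74, 3 under 0.05) and 10 of 10 for epithelium (-0.06, 0 under 0.05). Of the cardiac markers 4 of 5 were lower (-0.13, 0 under 0.05). Erythroid markers were higher, 8 of 8 (0.63, 2 with an unadjusted p under 0.05). Crest mesenchyme markers were split, with 5 higher and 5 lower (0.03). The part of these cells in the members' values was not tested.

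The double heterozygote was also set against the sum of both single heterozygotes on the log2 scale. In this test 0.00689% of genes (1 gene) and 0 of 6 members were called. No member had an unadjusted p under 0.05, beside 783 of all 14506 genes tested. The largest member value was Myog at -0.77 (SE 0.70, adjusted p = 0.908).

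**Figure D4:**
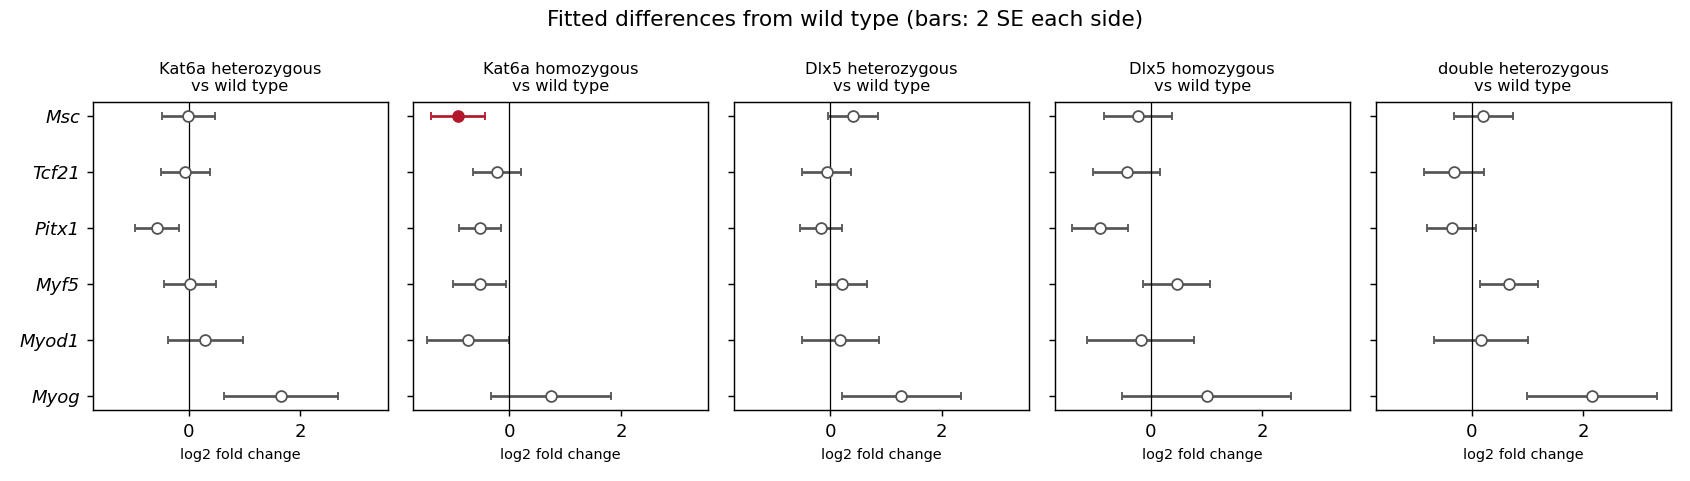
Fitted log2 fold change against wild type (horizontal axes) of the 6 tested members (vertical axis) in 5 genotypes (panels). Bars span 2 SE on each side and a filled point marks an adjusted p under the threshold of 0.05. Msc in Kat6a homozygotes (-0.93) is the filled point, and Myog in double heterozygotes (2.16) is the value farthest from 0.

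Members were also compared with each other from library to library. Of 21 pairs, 0 passed with Pearson's r at an adjusted p under 0.05. The highest was Myod1 with Myog (r = 0.544, permutation p = 0.00505, adjusted 0.106; rho 0.439). It was 0.376 within batch 1, 0.583 within batch 2 and 0.454 without the 2 libraries farthest from the median of Myod1. Pitx1 and Myod1 followed (r = 0.507, permutation p = 0.0109, adjusted 0.115; 0.733 and 0.459 within batches 1 and 2; 0.472 without the 2 farthest libraries). By rank, Msc and Pitx1 passed (rho 0.653, adjusted p = 0.017), with r of 0.386 (permutation p = 0.0628, adjusted 0.264) and 0.605 and 0.372 within batches 1 and 2. After group and batch means were removed, Myod1 with Myog (r = 0.568) and Pitx1 with Myod1 (r = 0.561) both reached an adjusted permutation p of 0.0451. Msc with Pitx1 then had an r of 0.04. That permutation treated the 24 residuals as free values, though the fit left 17 residual degrees of freedom. These residual p-values are therefore too small, and whether either pair passes cannot be read from them.

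For each member, tested genes among the 3 most like it over the 24 libraries were taken by Pearson's r of log2 level, as a description. Pitx1 was closest to Zfp219 (r = 0.925), Gm1673 (0.910) and H1f10 (0.890). Myog was closest to Bcl11a (0.856), Islr (0.849) and Chd3 (0.819), and Msc to Pkdcc (0.826), Hjv (0.805) and Ptms (0.789). Myod1 led with Ccn2 (0.776), Ntn1 (0.749) and Zfp821 (0.746), Tcf21 with Ripor1 (0.771) and Gldc (0.735), and Myf5 with Golga7 (0.740), Arl8b (0.683) and Hoxb2 (0.676). No member was among the 3 genes closest to another member.

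The wider muscle program was measured with lists of genes that act before, beside and after the members. Of 18 upstream regulators of head muscle, 16 were tested. In Kat6a homozygotes 1 was called, Ebf2, an EBF-type transcription factor, which rose from 20.5 ± 4.78 to 34.0 ± 5.36 CPM (log2 difference 0.71, SE 0.16, adjusted p = 0.0263), and the call was retained in 30 of 37 alternatives. In double heterozygotes 1 was called, Eya4, a cofactor of homeodomain factors in muscle and ear (from 21.7 ± 3.34 to 30.5 ± 3.84 CPM, 0.64, SE 0.14, adjusted p = 0.0296), retained in 26 of 37. Of all genes, 1.53% were called in the first of these comparisons and 0.448% in the second. The medians of the list were 0.11 and 0.25, beside 0.01 over all genes in both comparisons.

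Among 12 partners and inhibitors of bHLH factors, all tested, Id2 rose in Kat6a homozygotes (from 160.5 ± 16.4 to 194.8 ± 9.71 CPM, log2 difference 0.28, SE 0.07, adjusted p = 0.0401). This call, 1 of 12 beside 1.53% of all genes, was lost in 20 of 37 alternatives. Id proteins bind the partners of bHLH factors and keep them from DNA. Against Kat6a heterozygotes, Id1 was higher by 0.57 (SE 0.12, adjusted p = 0.0235) and Mdfi, an inhibitor that binds myogenic factors, by 0.29 (SE 0.06, adjusted p = 0.0182). These were 2 of 12 called, beside 0.641% of all genes. The Id1 call was lost in 7 of 37 alternatives (0.51, adjusted p = 0.419 without the neuron-rich libraries) and the Mdfi call in 8 of 37 (0.19, adjusted p = 0.246 with GC offsets). No partner or inhibitor was lower in a called way in either comparison, and 8 of 12 had a positive difference from wild type in Kat6a homozygotes.

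Of 34 genes of skeletal muscle differentiation 20 were tested. The highest were Mef2a (25.6 CPM over all libraries) and Mef2d (24.6 CPM), which act in many tissues, and Des, desmin, at 23.8 CPM. The 14 others did not pass the filter on low counts. Skeletal actin, Acta1, averaged 0.323 CPM over all libraries, and Mymk, needed for myoblast fusion, had 8 counts in 24 libraries. In Kat6a homozygotes 0 of 20 were called by edgeR, beside 1.53% of all genes. An unadjusted p under 0.05 was seen for 5 of them and for 1970 of all 14506 genes tested. Of the 20, 14 were lower and the median was -0.21 (0.01 over all genes). In double heterozygotes 1 was called, beside 0.448% of all genes, 15 were higher and the median was 0.26 (0.01 over all genes).

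The called gene was Myh3, embryonic myosin heavy chain, which like Myog was higher in the double heterozygotes. It rose from 0.194 ± 0.118 CPM (range 0.0865 to 0.337) in wild type to 0.850 ± 0.417 (0.423 to 1.3), from 1 to 4 and 5 to 15 reads per library. The log2 difference was 2.91 (SE 0.67, adjusted p = 0.0468), and the call was lost in 23 of 34 alternatives. It was 3.16 (adjusted p = 0.0511) without the neuron-rich libraries and 2.19 (adjusted p = 0.183) without a batch term, and DESeq2 gave no adjusted p. Myh3 averaged 0.902 ± 0.754 CPM in Kat6a heterozygotes and 0.590 ± 0.319 in Dlx5 heterozygotes. Myh3 was also called in the test over all genotypes (adjusted p = 0.0201), beside 1.39% of all genes.

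Genes of trunk and migratory muscle precursors (8 of 10 tested) and relatives of the members (7 of 10 tested) had 0 called by edgeR in every comparison between 2 groups. In Kat6a homozygotes against wild type 2 and 3 of them had an unadjusted p under 0.05, as did 1970 of all 14506 genes tested. The medians of the lists were -0.03 and -0.27. The low median of the relatives was not particular to Kat6a homozygotes. Against wild type it was -0.31 in Kat6a heterozygotes (7 of 7 lower) and -0.37 in Dlx5 homozygotes (6 of 7 lower). In Dlx5 heterozygotes and in double heterozygotes it was -0.11. In the test over all genotypes 1 relative of 7 tested was called, beside 1.39% of all genes. It was Scx, which encodes a bHLH factor of tendon (adjusted p = 0.0397), and this call was not followed through the alternatives.

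Markers of other cell types in the arches were summed per library. Cardiac markers (12 genes, none at 0 in all libraries) summed to 7.92 to 14.8 CPM over all libraries. Their sums overlapped in wild type (10.4 to 12.7 CPM) and Kat6a homozygotes (9.74 to 11.1 CPM). Crest mesenchyme markers (10 genes) summed to 1608 to 1982 CPM in wild type and 1604 to 1947 in Kat6a homozygotes, with Dlx2 called lower (-0.36, SE 0.09, adjusted p = 0.0295). The Dlx2 call was lost in 10 of 37 alternatives, with an adjusted p of 0.237 without the neuron-rich libraries and 0.141 with limma voom. Limb bud markers (10 genes, 3 at 0 throughout) summed to 2.27 to 3.98 CPM in wild type and 3.64 to 7.64 in double heterozygotes. Only Tbx4 among them passed the filter on low counts, and it was called higher in double heterozygotes (1.02, SE 0.23, adjusted p = 0.0456). The Tbx4 call was lost in 24 of 37 alternatives, among them the fit without a batch term (0.72, adjusted p = 0.205) and that without double heterozygous replicate 1 (0.77, adjusted p = 0.631). Epicardium and mesothelium markers (6 genes, none at 0) summed to 5.56 to 9.51 CPM in wild type and 7.11 to 15.4 in double heterozygotes, with Aldh1a2 called over all genotypes (adjusted p = 0.0289). Of the endothelial markers Cldn5 was called lower in Dlx5 homozygotes (-0.74, SE 0.14, adjusted p = 0.0488), a call lost in 22 of 35 alternatives (-0.54, adjusted p = 0.0597 without a batch term). Pdgfra of the crest list was lower in Kat6a homozygotes than in heterozygotes (-0.43, SE 0.09, adjusted p = 0.0198), a call lost in 8 of 37 (-0.37, adjusted p = 0.367 without the neuron-rich libraries). Against wild type 1.53% of all genes were called in Kat6a homozygotes, 0.448% in double heterozygotes and 0.0551% in Dlx5 homozygotes. Between Kat6a homozygotes and heterozygotes the share was 0.641%. In the test over all genotypes it was 1.39%, and the Aldh1a2 call there was not followed through the alternatives. Lbx1, which marks migratory muscle precursors of the trunk, had 10 counts in all libraries together, 7 of them in 1 library. Smooth muscle markers (6 genes, 3 tested) summed to 54.5 to 66.9 CPM in wild type and 62.4 to 75.9 in double heterozygotes, where 3 of 3 were higher (median 0.86). An unadjusted p under 0.05 was seen for 2 of these and for 1880 of all 14506 genes tested. Of the epithelium markers 9 of 10 were lower in double heterozygotes (median -0.24), with sums of 388.5 to 551.2 CPM beside 382.8 to 527.6 in wild type. The part of neurons, limb bud, mesothelium, smooth muscle and epithelium in the Myog and Myh3 values was not tested.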

How the data were processed

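RNA from pharyngeal arches 1 and 2 was made into stranded polyA libraries, per the labels' protocols. Per the submitters' processing notes, base calling used CASAVA 1.8.2, the build was mm10 and reads were counted per gene with featureCounts. Neither the aligner nor the annotation release nor the strand mode is stated (not given in the sources used here). The authors deposited raw counts per Entrez gene (27179 entries). The 568 without an identifier, 0.182 to 0.259% of each library, were left out, and 25275 of the other 26611 matched a RefSeq symbol. Symbols and positions came from RefSeq (GRCm38.p6), transcripts from GENCODE M21.

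Counts were fitted with edgeR 4.0.16 (R 4.3.3): filterByExpr, TMM, robust quasi-likelihood, group plus batch over 24 libraries with 17 residual degrees of freedom. P-values were adjusted by Benjamini-Hochberg over 14506 genes, with calls under 0.05. CPM used TMM library sizes, and correlations log2 CPM with a prior count of 2 and 100000 permutations. The scripts were tested on simulated data. Alternatives were DESeq2 1.42.0, limma 3.58.1 voom, RLE scaling, other filters (none, or 1 CPM in 12 libraries), no batch term, single batches, only the groups compared, a replicate block and each library left out; GC and length offsets and leaving out neuron-rich libraries were added after seeing the data. Same-numbered Kat6a heterozygous and wild type libraries deviated together (r from 0.151 to 0.656 for 4 pairs). With r over 0.1 as the mark, 3 of 4 pairs met it for Kat6a homozygous and wild type libraries (r from 0.0949 to 0.569). It was also met by 3 of 4 pairs for Kat6a homozygotes and Kat6a heterozygotes, and for Dlx5 heterozygotes and wild type. The remaining comparisons met it in at most 1 pair. The main values nevertheless used no replicate block, also for Kat6a heterozygotes, and only the alternative with a replicate block took the numbers into account. The Kat6a heterozygous and wild type libraries numbered 4 came from different batches.

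Members and lists were chosen with earlier results of these data known. Named beside the members are the deleted genes, list genes called in a comparison, the highest differentiation genes, defining markers and the 3 genes most like each member; 1 of the last is not reported here. Acta1, Mymk and Lbx1 were picked after their values were seen.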

Additional observations from a re-analysis of the deposited data

Results flagged for a closer look

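In the double heterozygotes, Myog replicate 1 stood apart from the other 3 libraries, at 1.73 CPM with the next library at 0.869 CPM. The gap was 0.875 of the group's whole range. This was the 1 case among 36 groups of 4 libraries examined, and chance alone gives such a gap in about 1 group in 20. Replicate 1 is also the 1 double heterozygous library from batch 2, and the part of batch in its level was not tested.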

How the results depend on the processing

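The number of members called was unchanged in most alternatives. For Kat6a homozygotes against wild type (1 member, Msc) it was 0 with limma voom, in batch 2 alone, with only the groups compared, without neuron-rich libraries and with GC offsets, and 0 to 1 when each library was left out in turn. The test over all genotypes (1 member) gave 2 with DESeq2, which called 621 (4.28%) of all genes where edgeR called 202 (1.39%), 0 without neuron-rich libraries and 0 to 1 with each library left out. Kat6a homozygotes against heterozygotes (0 members) gave 1, Msc at -0.97 with an adjusted p of 0.0383, with GC offsets and replicate block together. Double heterozygotes against wild type (0 members) gave 0 to 1 with each library left out, the call being Myog without Kat6a heterozygous replicate 1 (2.23, adjusted p = 0.0439). Correlated pairs (0 of 21) numbered 0 to 1 with each library left out. On residuals after group and batch they numbered 2, by p-values too small for the 17 residual degrees of freedom.

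With the replicate block alone the Msc difference between Kat6a homozygous and wild type libraries was -0.92 (adjusted p = 0.0263, 1 member called), the test over all genotypes called 1 member, and the other comparisons 0. The block changed no call of a member. No called member or list gene changed sign under any alternative, and 48 uncalled member values did.

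All genes called for double heterozygotes against wild type fell from 65 to 10 without a batch term, and ranged from 1 to 169 with each library left out. For Dlx5 homozygotes against double heterozygotes they rose from 0 to 154 in batch 1 alone. Dlx5 homozygotes and wild type could not be compared within a batch or alone, and the test over all genotypes was not run in batch 2 alone. Counts of 3 to 22 per library for Myog and 3 to 32 for Myod1 limit what can be detected.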
